A study of Neodesmus pupukensis with 4 samples.

Results

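The 200 transcript sequences with the highest abundance in a 14 h culture of a green microalga were followed through 3 later harvests. They are 200 of 14905 assembled sequences and belong to 179 of 6216 components, a component being a set of related sequences from the assembly. They were chosen by their RPKM in the 14 h library, which is the number of reads per kilobase of sequence, scaled to the stated library total. Their level at 14 h is therefore a consequence of the choice. No sequence tied with the last one taken.

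The alga was the strain UTEX2341, labelled Neodesmus pupukensis by its sample labels and Chlorella minutissima by the design text. It was grown fed-batch on a shaker at 25 °C, in flasks of 500 mL that held 200 mL of medium, and no treatment or mutation separates the groups. The groups are the culture times of 14, 45, 57 and 88 h, with 1 total RNA library each. No difference between times has a replicate check, no p-value was calculated, and each difference compares 2 libraries. Counting intervals cover counting error only.

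In a growing green alga, nuclear messages for ribosomal proteins, light-harvesting proteins and enzymes of carbon fixation are commonly among the most abundant. When growth slows or a nutrient runs short, algae commonly change the share of messages for protein synthesis and photosynthesis, and many store lipid. Which of these the 200 sequences encode is not known here, since the files pair 0 of the identifiers with a gene name, and neither marker genes nor enzymes of lipid synthesis could be looked up. Sequences are therefore named by their rank at 14 h, apart from 4 named by identifier.

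The libraries had stated totals of 11874560 to 12495251 reads, and 14616 to 14662 sequences had at least 1 read in each. Every one of the 200 had at least 66 reads in every library, so all 200 passed the floor of a mean of 10 reads in each pair of libraries. RPKM is a share of a library. A lower RPKM cannot be told apart from a rise of other transcripts, and less RNA per cell cannot be told apart from fewer cells that hold it.

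At 14 h the 200 sequences spanned 442 to 4748 RPKM, with a median of 918 RPKM. The last 2 inside the limit had 446 and 442 RPKM, and the first 2 outside it had 436 and 435 RPKM. These 4 neighbours stood far apart later. In the 88 h library they had, in the same order, 19.8, 51.5, 7.58 and 2168 RPKM.

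The places at the very top were held by sequences already abundant at 14 h, though not in the same order. First at 45 h was the sequence ranked 32 at 14 h, and first at 57 h and 88 h was the one ranked 67. In each later library all 10 of the most abundant sequences came from the 200. Of the 50 most abundant, the 200 supplied 45 in the 45 h library, 44 in that of 57 h and 45 in that of 88 h. Of the 200 most abundant, they supplied 150 in the 45 h library and 129 in both late ones. The 200 sequences that followed next in rank at 14 h, called the next 200 below, supplied 37, 32 and 36 in the same order.

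A high place at 14 h went with a place among the later 200. Of the 50 sequences ranked 1 to 50 at 14 h, 44 were among the 200 highest in all 3 later libraries. For the ranks 51 to 100 the number was 41, for the 50 after those it was 17, and for the last 50 it was 6. In all, 108 of the 200 kept a place throughout, 36 kept it at 45 h and had lost it by 57 h and 88 h, and 30 had lost it in all 3 later libraries. Another 16 were outside at 45 h and inside again at both late times. Some such loss follows from the choice, because a sequence just inside a limit needs only a small change to cross it.

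**Figure D1:**
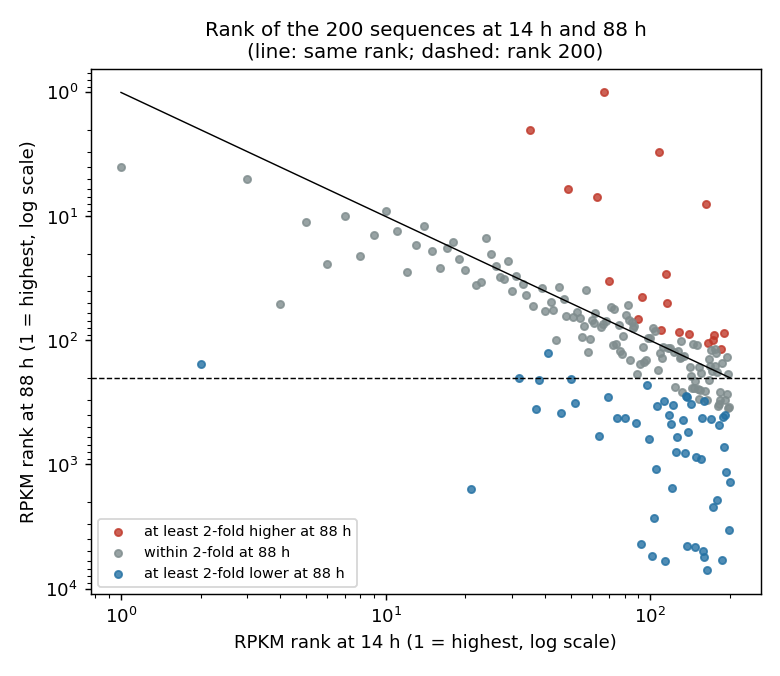
RPKM rank at 14 h (horizontal, log scale) against rank at 88 h (vertical, log scale, highest at the top) for the 200 sequences, 1 point each, coloured by their ratio of 88 h to 14 h. The 129 points above the dashed line were still among the 200 highest at 88 h, and the lowest point stood at rank 7139.

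Together the 200 sequences held more of the reads late in the culture than early. In order of culture time, they took 28.2%, 25.9%, 35.5% and 38.2% of all reads counted on sequences. Their share of the summed RPKM, in which length is taken out, was 40.5%, 35.3%, 48.9% and 51.0%. The share was thus lowest at 45 h and highest at 88 h on both scales. The 200 sequences highest in each library itself took 28.2%, 28.2%, 43.1% and 44.9% of counted reads, so the late libraries were more concentrated whichever list is used. The next 200 took 9.44%, 9.93%, 8.28% and 8.25%.

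A single long sequence weighed heavily in the share of counted reads. It ranked 35 by RPKM at 14 h, was 7253 bases long, and had more reads than any other in the 14 h library. Its level through the 4 harvests was 2187, 4764, 7374 and 11672 RPKM. It was the only one of the 5 sequences at least 2-fold higher at all 3 later times whose RPKM was highest at 88 h. Without it, the others took 27.0%, 23.3%, 31.4% and 31.5% of counted reads in the same order of times. In counted reads, the difference between 57 h and 88 h thus lay mostly in this sequence. In summed RPKM it did not, since the others took 40.2%, 34.5%, 47.8% and 49.3%.

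**Figure D2:**
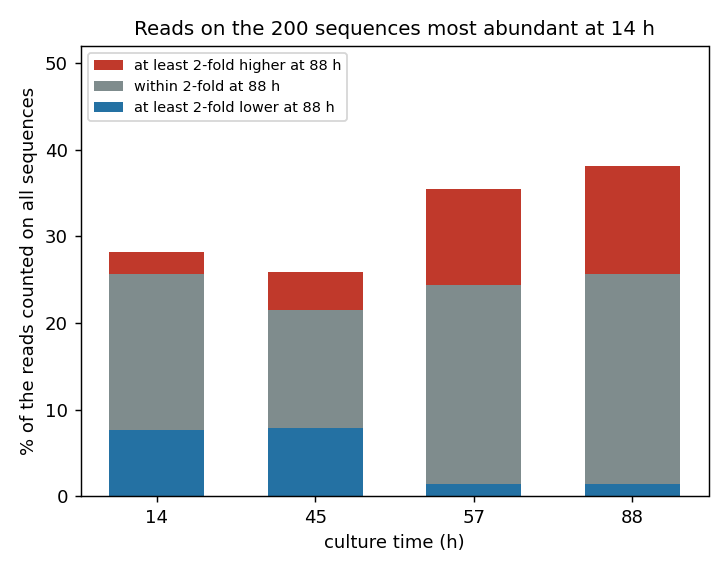
Percentage of all counted reads (vertical) on the 200 sequences at each culture time (horizontal), stacked by their ratio of 88 h to 14 h. The 19 sequences at least 2-fold higher at 88 h took 12.6% at 88 h and 2.53% at 14 h, and the 55 at least 2-fold lower took 1.42% at 88 h and 7.67% at 14 h.

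In the 45 h library most of the 200 were somewhat lower than at 14 h. Ratios below are log2 values of the later over the earlier library on the stated totals, with 0.5 reads added to each count. At 45 h 164 of the 200 lay below their 14 h level, with a median log2 ratio of -0.53, against -0.02 over all 13920 sequences tested. The next 200 had a median of -0.31. A list taken for its high values in 1 library tends to lie lower in any other, so the 14 h comparisons are a description. At least 2-fold, 14 of the 200 were higher and 15 were lower at 45 h, where 10.4% of all sequences were higher and 5.81% lower.

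The 10 most abundant sequences at 14 h were all lower at 45 h, and all but 2 were above their 14 h level at both late times. The first in rank, 1662 bases long, had 4748, 3568, 7701 and 8639 RPKM at 14, 45, 57 and 88 h. The third, 517 bases long, had 4189, 2995, 7269 and 7291 RPKM in the same order. Both were lowest at 45 h and highest at 88 h, and stood at ranks 4 and 5 there.

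The sequences ranked 5 to 10 at 14 h followed the same line. The fifth had 4012, 2510.5, 5235 and 5234.5 RPKM at 14, 45, 57 and 88 h, and the sixth had 3848, 1979, 4066 and 4229 RPKM. The seventh had 3820, 1999, 4602 and 5521 RPKM, and the eighth had 3645, 2364, 4711 and 4291 RPKM. The ninth had 3533, 2193, 4388 and 4740 RPKM and the tenth 3472, 2660, 5430 and 5597 RPKM. All 6 were lowest at 45 h and above their 14 h level at both late times.

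The exceptions were the sequences ranked 2 and 4. The second, 855 bases long, had 4593, 2355, 763 and 675 RPKM at the 4 times and ranked 155 in the last library. The fourth, 892 bases long, had 4174, 2109, 1945 and 2529 RPKM and ranked 51 there. Both stayed below their 14 h level in every later library.

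The step from 45 h to 57 h does not contain the library that chose the sequences. Over this step the 200 went against the bulk of the transcriptome. Their median log2 ratio of 57 h over 45 h was 0.70, against -0.71 over all 13963 sequences tested and -1.08 for the next 200. At least 2-fold, 72 of the 200 were higher at 57 h and 49 were lower, that is 36% and 24.5%, where 11.8% of all sequences were higher and 41.6% lower. Among the next 200, 27 were higher and 102 lower, so most of the 2-fold differences in the next 200 were downward, as over all sequences, and most in the 200 were upward. At 4-fold that contrast was gone. There 4 of the 200 were higher and 33 lower, that is 2% and 16.5%, near the 3.15% and 17.8% of all sequences. For the 200 highest by reads instead of RPKM, 31% were at least 2-fold higher and 32.5% lower.

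The counts depended on the library scaling, while the distance of the 200 from the rest did not, since a scaling shifts all sequences alike. With TMM scaling, which assumes that most sequences do not change and put the median of all at -0.01, 113 of the 200 were at least 2-fold higher at 57 h than at 45 h and 39 lower. The same scaling gave 23.4% higher and 23.3% lower over all sequences, and 48 higher and 69 lower among the next 200. The median of the 200 lay 1.41 log2 units above the median of all sequences on either scale.

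Many of the 200 shared nearly the same ratio over this step. The log2 ratio of 57 h over 45 h lay from 1 to 1.25 for 50 of them, or 25%, against 2.96% of all sequences and 2.5% of the next 200. This window was set after the values were seen, so its count is a description. Of the 50, 25 ranked among the first 50 at 14 h. They came from 50 components, and 46 were alone in their component, so no pair of them shared a component.

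The window was set on 57 h over 45 h, so ratios of the 50 to 14 h share a library with it, and the 14 h library chose the list. Their directions against 14 h are therefore a description. Their median through the 4 harvests was 1766, 1036, 2267 and 2690.2 RPKM. Against 14 h, 48 of the 50 were lower at 45 h and all 50 were higher at 57 h and at 88 h, with log2 ratios of 88 h over 14 h from 0.14 to 1.15. Over all sequences tested, 7103 of 13920 were lower at 45 h, and 4400 of 13950 and 4270 of 13934 were higher at 57 h and at 88 h. All 50 were among the 200 highest at 88 h. They were in the list by their 14 h level and in the window by their rise, so that place follows in part from these choices. They were short for this assembly, with a median of 945.5 bases and 26 under 1000 bases.

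**Figure D3:**
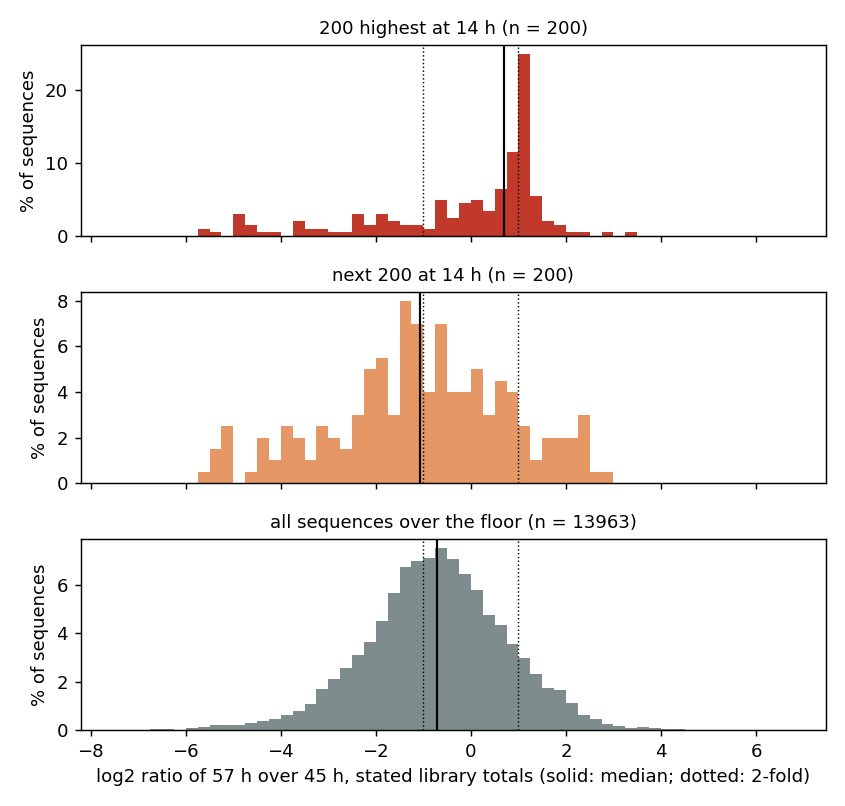
Distribution of the log2 ratio of 57 h over 45 h (horizontal) as a percentage of sequences (vertical), for the 200 sequences, for the next 200 at 14 h and for all 13963 sequences over the floor; the vertical scales differ between panels. The 200 form a narrow peak just above 1 with a long tail to the left, with a median of 0.70 against -1.08 and -0.71 in the other panels.

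The narrow peak was made mainly by the highest ranks. For the ranks 1 to 50 the median log2 ratio of 57 h over 45 h was 1.03, with quartiles of 0.67 and 1.12, and 28 were at least 2-fold higher and 7 lower. For the ranks 51 to 100 it was 0.86, and 18 were higher and 8 lower. For the 50 after those it was -0.15, with 15 sequences higher and 19 lower, and for the last 50 it was -0.04, with 11 higher and 15 lower. Over all sequences the median was -0.71, with 11.8% higher and 41.6% lower. With TMM scaling the numbers higher were, in the same order of ranks, 40, 33, 22 and 18, and those lower were 6, 7, 17 and 9. That scaling gave 23.4% higher and 23.3% lower over all sequences. The quartiles lay 0.45 apart in the first of these sets, 1.30 in the second, 3.30 in the third and 2.12 in the last, so the lower ranks held sequences that parted widely.

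Length moved with this difference. RPKM divides by length, and the 200 were short, with a median of 1291 bases against 1764.5 for the next 200 and 2270 for all sequences. The 78 of them under 1000 bases had a median log2 ratio of 57 h over 45 h of 0.99, with 38 at least 2-fold higher and 12 lower. For the 122 longer ones the median was 0.29. Of these, 34 (27.9%) passed 2-fold upward and 37 (30.3%) downward on the stated totals. Over all sequences of 1000 bases or more the shares were 10.9% and 41.4%. With TMM scaling 61 of the 122 passed upward and 30 downward, beside 22.5% and 22.4% of all sequences that long. More upward than downward differences were thus not found for the longer ones on the stated totals, though their upward share was above that of all sequences that long. Over all sequences tested the medians were -0.71 for those under 1000 bases and -0.71 for longer ones, and 16.2% and 10.9% were at least 2-fold higher. Length and rank at 14 h went together among the 200. The median was 847 bases for the ranks 1 to 50, 1485.5 for 51 to 100, 1590 for 101 to 150 and 1703.5 for 151 to 200. Whether length has a part in the difference among the 200, apart from rank, was not tested.

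From 57 h to 88 h the 200 hardly parted. None was 2-fold higher or lower at 88 h, where 2.09% of all sequences were higher and 1.11% lower, and TMM scaling also gave 0 in both directions. The log2 ratios ran from -0.97 to 0.79 with a median of 0.05. Counting error is smaller at high counts, and sequences of like counts were not compared, so nothing is read from the lower share past 2-fold. The Spearman correlation of RPKM across the 200, which are not independent, was 0.99 between 88 h and 57 h, and 0.97 in both the first and the last 50 by rank at 14 h.

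Set against 14 h, 129 of the 200 lay within 2-fold at 57 h and 126 at 88 h on the stated totals, and 79 and 63 with TMM scaling. On the stated totals, at 57 h 18 were at least 2-fold higher and 53 lower, beside 14.5% and 42.4% of all sequences. At 88 h 19 were higher and 55 lower, beside 14.3% and 44.2%. Their median log2 ratios were 0.19 at 57 h and 0.16 at 88 h, against -0.72 and -0.79 over all sequences. With TMM scaling 77 were higher and 44 lower at 57 h, beside 25.3% and 24.8% of all, whose median was -0.02, and 97 were higher and 40 lower at 88 h, beside 25.7% and 24.3% of all. Which way the larger number of the 200 went against 14 h thus depends on the scaling, and the comparison uses the library that chose them.

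By their course against 14 h, on the stated totals, 116 of the 200 stayed within 2-fold at all 3 later times, beside 33.2% of the 13690 sequences over the floor in all pairs with 14 h. With TMM scaling the number was 49, beside 40.3% of all. The median of the 116 through the 4 harvests was 1285, 862, 1429 and 1677 RPKM, and they took 23.1% of counted reads at 88 h, against 17.0% at 14 h. Another 31 were within 2-fold at 45 h and lower at both late times, beside 32.9% of all sequences, and 12 were lower at all 3 later times, beside 4.63%. Higher in both late libraries alone were 11, beside 8.53%, and 5 were higher in all 3 later libraries, beside 3.1%. A further 6 were higher at 45 h and turned to at least 2-fold lower afterwards, beside 2.57% of all sequences and 9 of the next 200. With TMM scaling these numbers were, in the same order, 23, 12, 66, 5 and 5. Beside them stood 16.8%, 3.67%, 17.4%, 4.33% and 1.38% of all sequences. The other 19 showed 8 courses with at most 5 sequences each. Every course uses the 14 h library, so nothing is read from these shares.

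**Figure D4:**
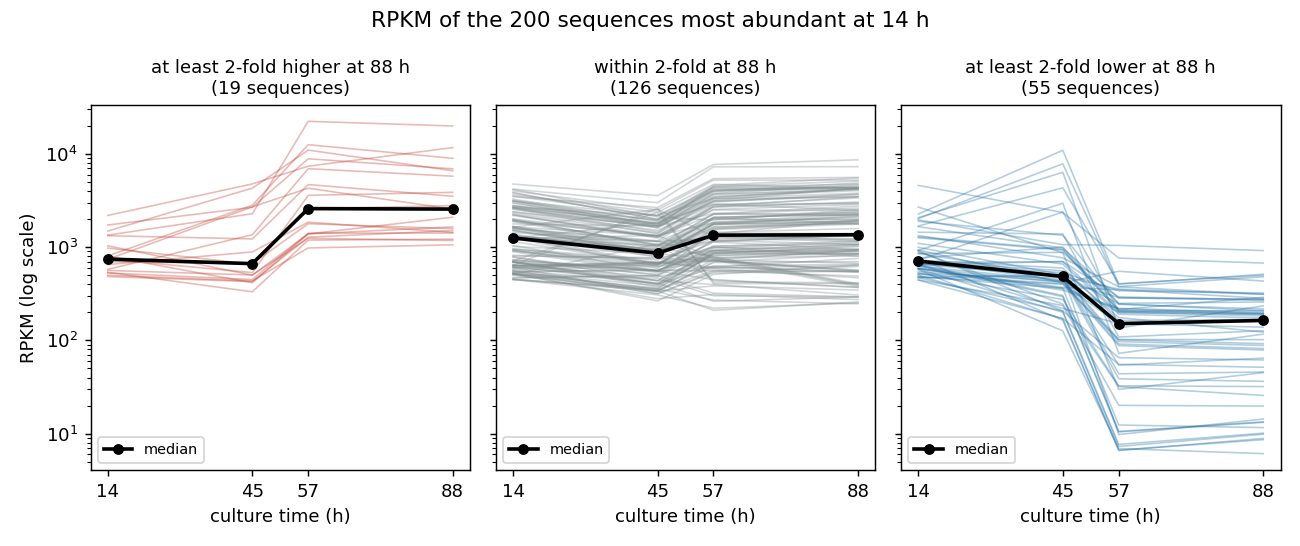
RPKM (vertical, log scale) of each of the 200 sequences at 14, 45, 57 and 88 h (horizontal), 1 line each, in panels by their ratio of 88 h to 14 h, with the panel median in black. The median of the 19 higher sequences was 2559 RPKM at 88 h and 745 at 14 h, that of the 126 within 2-fold was 1358 at 88 h and 1254 at 14 h, and that of the 55 lower ones was 164 at 88 h and 709.5 at 14 h.

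The 6 sequences that peaked at 45 h and were lower than at 14 h afterwards included the 3 most abundant of the 45 h library. The one ranked 32 at 14 h, 1250 bases long, had 2265, 10938, 399.99 and 512 RPKM at 14, 45, 57 and 88 h. The one ranked 38, 1280 bases long, had 2022, 7829.8, 378 and 481 RPKM. They were first and second at 45 h and near rank 200 at 88 h.

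The sequences ranked 37 and 99 at 14 h are the 2 members of 1 component, so they may share reads. The first had 2069, 6354, 136 and 234 RPKM, and the second had 922, 2960.5, 72.7 and 117 RPKM. The remaining ones ranked 50 and 118 at 14 h. The one ranked 50 had 1686, 4323, 406 and 498 RPKM, and the one ranked 118 had 729, 2379, 207 and 208 RPKM. Together the 6 took 0.93%, 3.31%, 0.143% and 0.192% of counted reads through the 4 harvests, and each was at its highest at 45 h. Those ranked 124, 144 and 183 also passed 2-fold upward at 45 h and were back within 2-fold of their 14 h level later.

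The 5 sequences higher at all 3 later times were among the most abundant of the late libraries. Besides the long one described above, the one ranked 63 at 14 h, 814 bases long, had 1488, 4291, 10984 and 6586 RPKM at 14, 45, 57 and 88 h. The one ranked 116 had 741, 2702, 4282 and 2559 RPKM, and the one ranked 162 had 578, 1359, 6941 and 5765 RPKM. Each of these was highest at 57 h. The fifth is one of the sequences named by identifier below. As a set the 5 took 1.39%, 3.17%, 6.17% and 8.07% of counted reads.

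**Figure D5:**
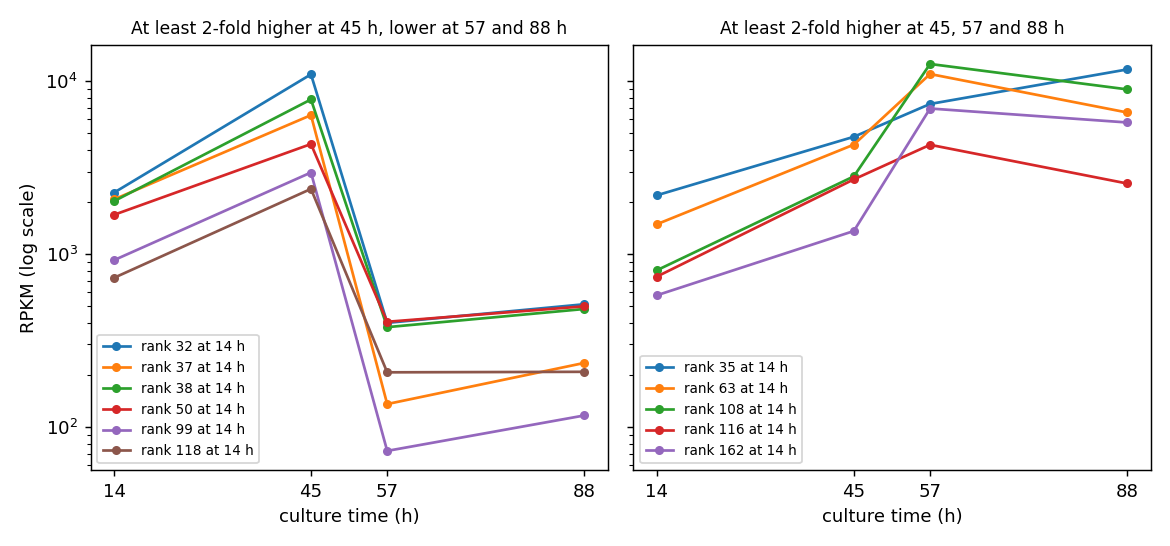
RPKM (vertical, log scale) at 14, 45, 57 and 88 h (horizontal) of the 6 sequences past 2-fold upward at 45 h and past 2-fold downward in both late libraries, and of the 5 past 2-fold upward in all 3 later libraries, 1 line each, labelled by rank at 14 h. The first set stood at 72.7 to 406 RPKM at 57 h, against 2379 to 10938 RPKM at 45 h, while the second stood at 4282 to 12556 RPKM at 57 h.

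At the extremes, on the stated totals, 3 of the 200 were at least 8-fold higher at 88 h than at 14 h and 20 lower. Beside them stood 1.57% and 6.39% of all sequences. With TMM scaling 5 were higher and 15 lower, beside 4.05% and 2.43%. The 2 with the highest ratio were comp128_c0_seq1 and comp198_c0_seq26. The sequence comp128_c0_seq1, 902 bases long and ranked 67 at 14 h, had 1345, 2282, 22350.5 and 19920.5 RPKM through the 4 harvests. It ranked first at both late times, and its log2 ratio of 88 h over 14 h was 3.89 (95% counting interval 3.86 to 3.91).

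The sequence comp198_c0_seq26, 693 bases long and ranked 108 at 14 h, had 806, 2812, 12556 and 8958 RPKM at 14, 45, 57 and 88 h. Its log2 ratio of 88 h over 14 h was 3.47 (3.44 to 3.51). It comes from a component of 26 sequences, the largest that holds any of the 200, and reads could have been divided or repeated among them. The third past 8-fold on the stated totals was the sequence ranked 162 at 14 h, given above. All 3 were higher at 57 h than at 88 h.

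The 2 with the lowest ratio were comp1505_c0_seq1 and comp433_c0_seq4. The sequence comp1505_c0_seq1, 2169 bases long and ranked 163 at 14 h, had 15564, 3256, 182 and 160 reads through the 4 harvests. These are 574, 126, 6.92 and 6.11 RPKM, and the log2 ratio of 88 h over 14 h was -6.55 (-6.79 to -6.33). It stood at rank 7139 of 14905 at 88 h.

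The sequence comp433_c0_seq4, 720 bases long and ranked 101 at 14 h, had 917, 206, 7.67 and 10.1 RPKM at 14, 45, 57 and 88 h, and a log2 ratio of 88 h over 14 h of -6.49 (-6.82 to -6.20). The intervals of this pair overlap, so they have no order. The other 3 sequences of its component were also among the 200, at ranks 114, 160 and 186 at 14 h, with 8.61, 9.87 and 8.88 RPKM at 88 h. These 4 sequences may share reads and are not 4 separate cases.

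The 20 sequences at least 8-fold lower on the stated totals came from 16 components. Their median through the 4 harvests was 684, 299, 25.0 and 22.7 RPKM. At 45 h 19 of the 20 were below their 14 h level and 10 of them by at least 2-fold, the exception being the sequence ranked 37, which was higher there. All 20 were at least 2-fold lower at 57 h than at 45 h, with a median log2 ratio of -4.40. From 57 h to 88 h 12 were higher and 8 lower. Of all sequences tested, 41.6% were at least 2-fold lower at 57 h over 45 h, and 5.81% at 45 h over 14 h. The 20 were chosen for a low ratio of 88 h to 14 h, and none differed 2-fold between 57 h and 88 h. Falls before 57 h thus follow largely from the choice, and nothing is read from their number. The highest placed of the 20 at 14 h, ranked 21 and 927 bases long, had 2689.8, 871, 29.8 and 45.1 RPKM.

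Related sequences mostly went the same way, but sequences of 1 component may share reads. Those ranked 68 and 76 at 14 h, of the same component, had 35067 and 35082 reads at 14 h. Likeness within a component may thus come from the counting, and nothing is read from it. The 200 held 15 components with 2 or more of them, which together account for 36 of the 200. In 14 of the 15 components all of them lay in the same class at 88 h, and the median difference between the highest and lowest log2 ratio of 88 h over 14 h was 0.16. The exception was a component of 6 sequences. Its sequence ranked 83 at 14 h had 1248, 927, 1831 and 2016 RPKM at 14, 45, 57 and 88 h, while the one in the last place but 1 of the 200 had 446, 236, 20.1 and 19.8 RPKM, so the 2 parted by 5.18 log2 units. Of the 200, 158 were alone in their component, or 79%, against 25.1% of all sequences and 137 of the next 200.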

How the data were processed

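The authors deposited 1 file per library. Per the file headers, its columns are RPKM, a stated total of reads, a read count and a length. The deposited RPKM equalled the count per kilobase, scaled to the stated total, to within 3.8e-11. BWA is named per the submitters' processing notes. The reference, read filters and the handling of shared reads were not given in the sources used here. Counts summed to 1.27 to 1.36 times the stated totals, so shared reads may be counted more than once, and counting intervals are then too narrow.

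Sequences were ranked by RPKM, ties in file order. Ratios used counts plus 0.5 reads over the stated totals, where the 2 libraries averaged 10 reads or more. Intervals are exact conditional binomial (Clopper-Pearson) at 95%. A component is the identifier without its sequence number. A trend over the 4 libraries was not run, since the 14 h library chose the sequences. By rule, the text names by identifier the 2 highest and 2 lowest ratios of 88 h to 14 h, and by rank the first 10 and the 4 around the limit. Other ranks were singled out after their values were seen. The sequences and comparisons were chosen with earlier results of these data known. The ratio was checked on simulated data. Alternatives were other scalings (edgeR's TMM among them), floors, pseudocounts, fold thresholds and lists. Scaling factors came from edgeR 4.0.16 in R 4.3.3, and all else from Python 3.11.15 with scipy 1.17.1, pandas 2.3.3 and numpy 2.4.6.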

Additional observations from a re-analysis of the deposited data

How the results depend on the processing

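The shares of the 200 found again among the 200 highest, 75% at 45 h and 64.5% at 57 h and at 88 h, stayed within 1.5 times under ranking by reads, lists of 100 or 500, 1 sequence per component, and sequences of at least 1000 bases. For 88 h over 57 h, 29 of 30 alternative shares were 0%, as reported. Several of these could not differ from 0%, so their number is no measure of stability. Stricter cuts and subsets of the 200 start from 0, and the other floors removed none of the 200. In the other pairs, 97 of 120 alternative shares, other thresholds and lists included, stayed within 1.5 times. That number includes settings that could hardly move a share. The other floors kept all 200 sequences, and a pseudocount of 5 reads is small beside their counts. These settings gave the reported shares in every pair.

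With TMM, median-of-ratios and centring on the median of all sequences (the last chosen after seeing the data), the share higher was 38.5%, 39.5% and 43% at 57 h over 14 h, against 9% as reported. It was 48.5% under all 3 at 88 h over 14 h, against 9.5%, and 56.5%, 56.5% and 57% at 57 h over 45 h, against 36%. All 3 put the middle of all sequences near no change by construction. Leaving the 10 most abundant out of the total gave 15% higher at 88 h over 14 h.

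At 4-fold, 1% were higher and 1.5% lower at 45 h over 14 h, 3.5% higher at 57 h and at 88 h over 14 h, and 2% higher at 57 h over 45 h, the narrow peak lying near 2-fold. The 100 highest gave 4% lower at 45 h, 16% at 57 h and 17% at 88 h, all over 14 h, and 15% at 57 h over 45 h. The 500 highest gave 46.4% and 48.6% lower at 57 h and 88 h over 14 h, 20.6% higher and 42.2% lower at 57 h over 45 h, and 0.8% higher at 88 h over 57 h. On the stated totals at 2-fold, more sequences were therefore higher than lower from 45 h to 57 h for the 200 and the 100 highest. The same held for 1 sequence per component (37.5% higher, 24% lower). It was not found for the 500 highest or for the 200 highest by reads (31% higher, 32.5% lower). Nor was it found at 4-fold, where 16.5% of the 200 were lower. Over all sequences 11.8% were higher and 41.6% lower at 2-fold, and 3.15% and 17.8% at 4-fold. The 2-fold shares higher in the 500 highest and in the 200 highest by reads thus still lay above that of all sequences. The 122 of the 200 with 1000 bases or more had 34 higher and 37 lower on the stated totals, and 61 and 30 with TMM scaling. Over all sequences that long, 10.9% were higher and 41.4% lower on the stated totals, and 22.5% and 22.4% with TMM scaling.

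Per stated total, the 200 took 38.0%, 35.3%, 46.0% and 48.6% of reads at 14, 45, 57 and 88 h. Without the sequence with the most reads they took 27.0%, 23.3%, 31.4% and 31.5% of counted reads. The ratios of the 4 named sequences kept their sign under all 5 alternatives run on them. No paired analysis was possible because 1 library stands for each time, and no library could be left out. Depth limits the lowest values most, since the smallest count among the 200 was 66 reads.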

Other observations

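The places that the 200 lost among the 200 highest were taken by 50 sequences at 45 h and by 71 in each late library. At 45 h, 37 of the 50 had been among the next 200 at 14 h and 0 had ranked beyond 1000. At 57 h, 32 of the 71 had been among the next 200 and 21 beyond 1000, and at 88 h the numbers were 36 and 22, the farthest coming from rank 4355. The sequences of the 200 that had lost their place still took 2.48%, 2.30% and 2.62% of counted reads at 45, 57 and 88 h. The sequence at rank 200 had 442, 438, 565 and 512 RPKM through the 4 harvests.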
